A study of Mus musculus with 4 samples.

Results

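Fibroblast growth factor (FGF) genes were examined in testes of Lhcgr KO mice and control WT mice. Lhcgr encodes the receptor for luteinizing hormone, the pituitary signal for testosterone synthesis in Leydig cells. Mice of both groups had received busulfan at 44 mg/kg and were killed 4 weeks later; busulfan is an alkylating drug used to deplete germ cells, and neither group was left untreated. The labels give no strain and no age. The comparison rests on 2 Lhcgr KO and 2 control WT samples of total testis RNA from male mice, read on 1-colour Affymetrix whole-transcript arrays with 1 array each. The list held 35 genes named by function, namely the FGF ligands and homologous factors, their receptors, a ligand-binding protein, a docking adaptor, feedback inhibitors, the target Etv4 and the coreceptor Klb. A gene was taken from a probe set whose annotation names it and no other gene. This held for 34 of the 35, each with 1 probe set, out of 19938 genes tested. Frs2, the docking adaptor, had no such probe set and has no value here. No gene was removed for low signal.

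Secreted FGFs bind receptor tyrosine kinases on the cell surface together with heparan sulfate or a Klotho coreceptor. The receptors signal through the adaptor Frs2 to the Ras and ERK cascade, which switches on ETS factors such as Etv4 and Etv5 and the inhibitors of the Sprouty and Spred families that damp the same cascade. In the testis, Fgf9 takes part in the choice of the male pathway in the embryonic gonad, and Fgf2 is used with GDNF to keep spermatogonial stem cells in culture.

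The 4 arrays had median intensities between 198 and 215 and a lowest value of 16 on the linear scale. Whether this floor comes from a constant added in processing is not known here; such a constant would understate the fold changes of dim genes, most ligands and Klb among them. Values for Lhcgr are not analysed here, which leaves the genotype labels unchecked. All 9 measured Sertoli cell markers, of which Amh rose and 8 did not pass the test, gave intensities of 464.89 or more on every array, and their sum was 35590.1 and 35854.6 in the knockout, against 35582.4 and 33363.0 in wild type. Adult Leydig cell markers (8 measured, 6 fell at a limma adjusted p under 0.05 over all genes) summed to 3808.0 and 3039.5 in the knockout, against 24210.0 and 13329.3 in wild type. Macrophage markers (7 measured, 4 fell) summed to 2944.6 and 3294.4 in the knockout, against 5739.9 and 7212.5 in wild type. Germ cell markers (8 measured, none passed) summed to 1895.8 and 1584.4 in the knockout, against 2016.4 and 1438.1 in wild type. Markers of the epididymis and rete testis stood apart on control WT replicate 2, where 8 of 9 were over 1 log2 unit above every other array. Their sum was 1060.8 and 1078.6 in the knockout, and 1115.7 on replicate 1 but 7261.8 on replicate 2 of wild type. Of these markers Epcam fell and 8 did not pass the test. Epcam read 82.7 and 82.6 in the knockout, against 213 and 558 in wild type (limma adjusted p = 0.0484). No marker is at 0, and the lowest Leydig cell marker value was 19.25. Of all genes, the test called 0.963% higher and 2.14% lower in the knockout. The marker lists were chosen with earlier results of these data known, so the counts called do not test a change in cell numbers. The labels do not say whether the samples came from separate animals, so each p-value reflects only how far these 4 arrays differ, and part of that may be technical.

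Of the 34 measured genes, Fgf11 alone passed the test, with higher values in the Lhcgr KO testes, and 33 did not (limma across all genes, Benjamini-Hochberg adjusted p under 0.05). Among all genes the same test called 3.1%, with 0.963% higher and 2.14% lower in the knockout. At an unadjusted p under 0.05, 15 of the 34 and 22.7% of all genes passed. The Lhcgr KO arrays lay above both control WT arrays for 24 of the 34 genes and below both for 5, and overlapped them for the other 5. Of all genes, 36.8% were above, 22.4% below and 59.2% not overlapping in either direction. The largest differences in size, both negative, were those of the receptors Fgfr2 and Fgfr4, neither of which passed. Over the 34 genes the median log2 fold change, knockout over wild type, was 0.24, against 0.07 over all genes tested. An exact permutation test of a single gene with 2 samples a group cannot give a two-sided p below 0.333, so each call rests on the spread that limma shares among genes.

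**Figure D1:**
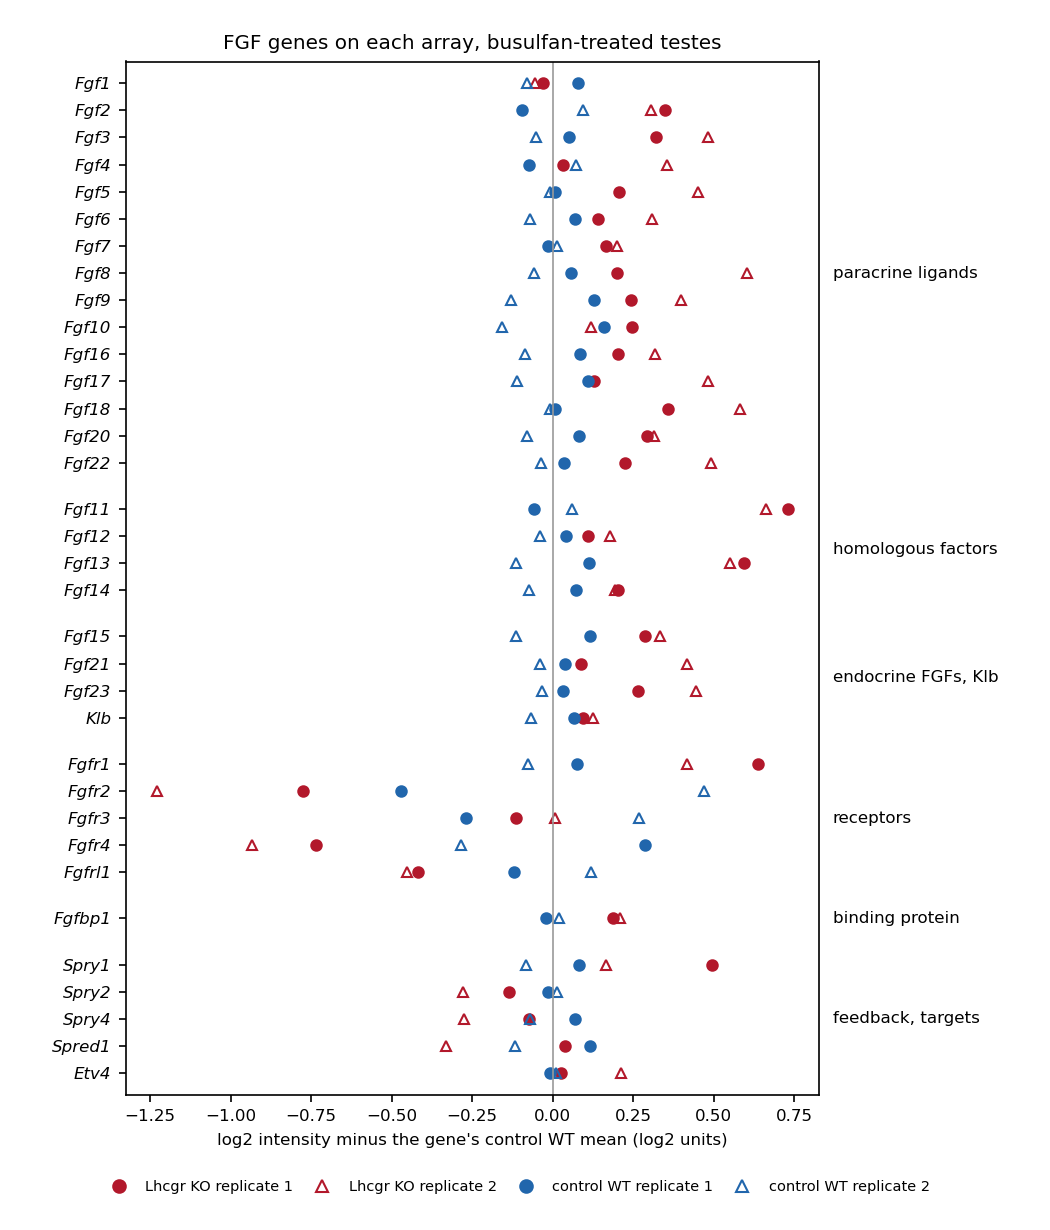
Each row is an FGF gene and each symbol an array, placed by its log2 intensity minus the control WT mean of that gene (red, 2 Lhcgr KO arrays; blue, 2 control WT arrays). Most ligands have both red symbols to the right of both blue ones, and Fgfr2 and Fgfr4 have them to the left with widely spaced blue symbols.

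The stretches of DNA before the transcription start are shown for Fgf11, the gene that passed, and for Fgfr2, Fgfr4 and Fgfrl1, the receptors with lower values on both knockout arrays. They are the 250 bases before the start from RefSeq, build GRCm38.p6, written 5′ to 3′ on the strand of the gene. Capitals mark matches on either strand to 5 searched motifs: the cyclic AMP response element (TGACGTCA), the NR5A1 motif (AAGGTCA), the androgen receptor half-site (AGAACA), the ETS motif (CCGGAAG) and the GC box (GGGCGG).
Fgf11, chr11:69802281-69802530, minus strand: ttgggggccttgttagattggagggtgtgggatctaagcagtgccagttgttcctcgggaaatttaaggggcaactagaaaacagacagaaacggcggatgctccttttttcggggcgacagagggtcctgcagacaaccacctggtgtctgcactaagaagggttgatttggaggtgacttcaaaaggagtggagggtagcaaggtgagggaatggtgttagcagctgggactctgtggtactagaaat
Fgfr2, chr7:130266809-130267058, minus strand: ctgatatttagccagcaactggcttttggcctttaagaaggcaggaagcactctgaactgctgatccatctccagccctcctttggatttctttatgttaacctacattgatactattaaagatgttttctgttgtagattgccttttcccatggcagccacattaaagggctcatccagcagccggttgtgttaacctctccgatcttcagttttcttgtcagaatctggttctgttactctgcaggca
Fgfr4, chr13:55152568-55152817, plus strand: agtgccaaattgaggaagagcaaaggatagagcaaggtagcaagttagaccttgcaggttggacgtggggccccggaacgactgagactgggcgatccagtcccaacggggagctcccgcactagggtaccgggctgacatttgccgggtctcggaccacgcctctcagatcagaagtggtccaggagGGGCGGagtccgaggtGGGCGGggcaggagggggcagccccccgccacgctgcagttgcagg
Fgfrl1, chr5:108693979-108694228, plus strand: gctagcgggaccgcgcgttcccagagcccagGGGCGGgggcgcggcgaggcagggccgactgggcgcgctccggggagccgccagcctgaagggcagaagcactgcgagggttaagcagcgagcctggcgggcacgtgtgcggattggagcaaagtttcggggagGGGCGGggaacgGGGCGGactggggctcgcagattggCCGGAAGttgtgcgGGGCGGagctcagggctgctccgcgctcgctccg

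The windows of Fgf11 and Fgfr2 held none of the 5 motifs. That of Fgfr4 held 2 GC boxes, and that of Fgfrl1 held 4 GC boxes and 1 ETS motif, none of them overlapping. The share of G and C was 51.2% for Fgf11, 44.0% for Fgfr2, 64.0% for Fgfr4 and 73.6% for Fgfrl1, against a median of 52.4% over all windows. RefSeq windows were found for 26 of the 35 genes, 33 windows in all. Of these, 21 held the GC box, 2 the ETS motif (Fgfrl1 and Frs2), 2 the androgen receptor half-site (Fgf13 and Fgfbp1), and none the NR5A1 motif or the cyclic AMP response element. Among 32851 windows of all genes, the shares were 32.74%, 6.91%, 16.08%, 4.08% and 1.55% in that order. A match describes the letters of the window and is not a measured binding site.

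The secreted ligands lay mostly a little higher on the knockout arrays, and no ligand passed the test. Of 18 measured (15 paracrine and 3 endocrine), 17 had positive log2 fold changes, from -0.04 to 0.47 with a median of 0.31, and adjusted p-values of 0.108 or more. The knockout arrays were above both wild-type arrays for 15 of the 18 and overlapped them for 3, set beside the 36.8% of all genes. Most of the ligands were dim: 14 of the 18 lay below the median signal of all genes. Dim genes as a whole also sat higher in the knockout, with a median log2 fold change of 0.17 in the dimmest of 4 equal bins of signal and 0.14 in the next, against -0.03 and -0.05 in the brighter bins. The knockout arrays were above both wild-type arrays for 51.4% and 46.9% of genes in those dimmer bins, and for 26.6% and 22.4% in the brighter ones. Of the 34 FGF genes, 6 lay in the dimmest bin (median log2 fold change 0.17), 16 in the next (0.28), 10 in the third (0.32) and 2 in the brightest. The part of this general shift in the ligands' values was not tested.

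**Figure D2:**
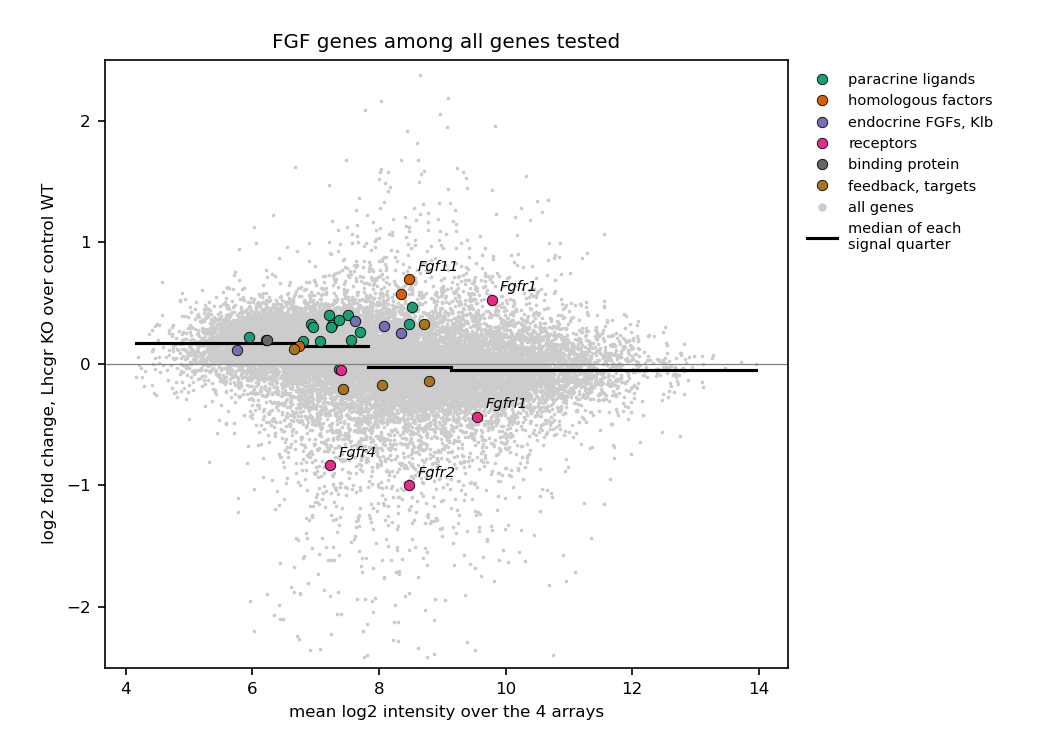
Log2 fold change, Lhcgr KO over control WT, against the mean log2 intensity over the 4 arrays, for all 19938 genes (grey) and the 34 FGF genes (coloured by role); black lines are the median fold change in each of 4 equal bins of signal, and 40 genes beyond 2.5 log2 units are not drawn. The lines step down from 0.17 to -0.05, and most ligands lie above them on the dim side.

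Among the paracrine ligands, Fgf18, known for its part in skeletal growth, differed most. Its intensities were 398 and 465 in the knockout, against 313 and 309 in wild type (log2 fold change 0.47 ± 0.12 SE, n = 2 a group, adjusted p = 0.108 by limma). The groups did not overlap and the knockout pair was the more spread. Fgf2, the basic FGF used in stem cell culture, had 407 and 394 in the knockout, against 299 and 341 in wild type. Its log2 fold change was 0.33, with a 95% confidence interval of 0.04 to 0.62 and limma adjusted p = 0.188, and again the groups did not overlap. Fgf9, the ligand of embryonic testis formation, read 162 and 181 in the knockout, against 149.9 and 125 in wild type. For Fgf9 the log2 fold change was 0.32 ± 0.14 (SE, limma adjusted p = 0.225), with wild-type replicate 2 the lowest array.

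Fgf3, known from development of the inner ear, read 160.3 and 179 in the knockout, against 133 and 124 in wild type (log2 fold change 0.40 ± 0.12 SE, adjusted p = 0.135 by limma). Fgf8, a patterning signal of the embryo, read 183 and 242 in the knockout, against 166 and 153 in wild type. Its log2 fold change of 0.40 (SE 0.16, adjusted p = 0.205 by limma) was smaller than the difference between its own knockout arrays. Fgf22, which acts at forming synapses, read 171 and 206 in the knockout, against 149.7 and 143 in wild type (log2 fold change 0.36, limma adjusted p = 0.187). In each of these 3 genes both knockout arrays were above both wild-type arrays, as for 36.8% of all genes. Knockout replicate 2 was the highest array. That array held the highest value for 12 of the 15 paracrine ligands, knockout replicate 1 for 2 and wild-type replicate 1 for 1.

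Fgf5, a regulator of the hair cycle, had 124 and 148 in the knockout, against 108 and 107 in wild type. Fgf20, which acts in the inner ear and kidney, had 138 and 139.75 in the knockout, against 119 and 106 in wild type. Fgf17, a signal of the midbrain and cerebellum, had 148 and 189.9 in the knockout, against 147 and 126 in wild type. Knockout replicate 1 of Fgf17 was thus only just above wild-type replicate 1, while the groups of Fgf5 and Fgf20 were apart. Log2 fold changes of the 3 genes were 0.33, 0.30 and 0.31, with limma adjusted p = 0.201, 0.200 and 0.287. Fgf16, a factor of the heart, had 218 and 235 in the knockout, against 200.4 and 178 in wild type (log2 fold change 0.26). Fgf6, known from muscle, had 62.8 and 70.6 in the knockout, against 59.8 and 54.4 in wild type (log2 fold change 0.22), with groups that did not overlap.

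Fgf7, the keratinocyte growth factor, read 141 and 144 in the knockout, against 124 and 127 in wild type. Its arrays were close within each group, yet the log2 fold change of 0.18 (SE 0.11, adjusted p = 0.333 by limma) had a 95% confidence interval that included 0. Fgf10, a ligand of Fgfr2 in budding organs, read 124 and 114 in the knockout, against 117 and 93.8 in wild type, and the groups overlapped (log2 fold change 0.18). Fgf4, a factor of the early embryo, read 180.5 and 226 in the knockout, against 168 and 186 in wild type, and overlapped as well (0.19). Fgf1, which can bind all of the FGF receptors, was the only ligand with a negative value. It read 164 and 161 in the knockout, against 177 and 158 in wild type, which makes the log2 fold change -0.04 with a 95% confidence interval of -0.32 to 0.24 (limma adjusted p = 0.832), and it was 0.04 without wild-type replicate 1.

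The endocrine FGFs travel in the blood and need Klotho proteins as coreceptors. Fgf23, the phosphate-regulating hormone of bone, read 209.8 and 238 in the knockout, against 179 and 171 in wild type (log2 fold change 0.35 ± 0.12 SE, adjusted p = 0.164 by limma). Fgf15, the mouse counterpart of human FGF19 that restrains bile acid synthesis, read 298 and 307 in the knockout, against 264 and 225 in wild type (log2 fold change 0.31, limma adjusted p = 0.212). Fgf21, a metabolic hormone of the liver, read 319 and 400.1 in the knockout, against 308 and 292 in wild type (0.25, limma adjusted p = 0.314). All 3 had non-overlapping groups, as did 59.2% of all genes, and the knockout pair of Fgf21 differed by more than the groups did. Klb, the beta-Klotho coreceptor of Fgf15 and Fgf21, read 55.2 and 56.5 in the knockout, against 54.2 and 49.4 in wild type. Its log2 fold change was 0.11 ± 0.11 (SE, limma adjusted p = 0.557) and turned to -0.03 after quantile normalization, so Klb has no settled direction. In the RefSeq gene order Fgf3, Fgf4 and Fgf15 are consecutive protein-coding genes, with log2 fold changes of 0.40, 0.19 and 0.31. Fgf6 and Fgf23 are also next to each other, with 0.22 and 0.35.

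The FGF homologous factors Fgf11 to Fgf14 stay inside the cell and are known to bind voltage-gated sodium channels in neurons and heart rather than to act as secreted ligands. Fgf11 (probe set 10387638) was higher in the knockout testes, at 464 and 443, against 269 and 292 in wild type. The groups lay far apart relative to the spread within them, with means of 8.83 ± 0.05 in the knockout and 8.13 ± 0.08 in wild type (log2 intensity, SD, n = 2 each). Fgf11 thus rose 1.62-fold, a log2 difference of 0.70 ± 0.11 (SE, 95% confidence interval 0.42 to 0.97, limma adjusted p = 0.0305). Over 14 alternative settings its log2 fold change lay between 0.64 and 0.76 and its adjusted p between 0.0174 and 0.186. It did not pass when either knockout array was left out (0.186 each), nor without wild-type replicate 1 (adjusted p = 0.0567). It passed without wild-type replicate 2, the array that stood apart (log2 fold change 0.76). A fit without 1 array leaves the other array of its group alone, so its p-value takes no account of that group's spread. With the replicate number as a block, Fgf11 had a limma adjusted p = 0.0502. In RNA of a whole testis, more cells of a type and more RNA per cell cannot be told apart.

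Fgf13, the X-linked homologous factor, came next, with 405 and 393 in the knockout, against 290.2 and 248 in wild type. Its groups did not overlap and its log2 fold change was 0.57 ± 0.13 (SE, limma adjusted p = 0.0693). It passed in 3 of 14 alternative settings. These were a robust prior (limma adjusted p = 0.0479), the dimmest 50% of genes left out (0.0478), and the fit without wild-type replicate 1, which leaves a lone wild-type array. With only the dimmest 25% left out it did not pass (limma adjusted p = 0.0591). Fgf14, linked to nerve cell excitability, read 79.45 and 79.1 in the knockout, against 72.7 and 65.65 in wild type. Fgf12, another neuronal and cardiac member, read 109.9 and 115 in the knockout, against 105 and 99.0 in wild type. Both knockout arrays were above both wild-type arrays in these genes, but with log2 fold changes of only 0.20 and 0.14 (limma adjusted p = 0.327 and 0.439). Both knockout arrays were thus above wild type for all 4 homologous factors, and for 36.8% of all genes. The share was 51.4% in the dimmest bin, where Fgf12 and Fgf14 lie, and 26.6% in the third, where Fgf11 and Fgf13 lie. The test called 1 of the 4 higher, and 0.963% of all genes. In either direction it called 5.2% of genes in the third bin and 0.642% in the dimmest.

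**Figure D3:**
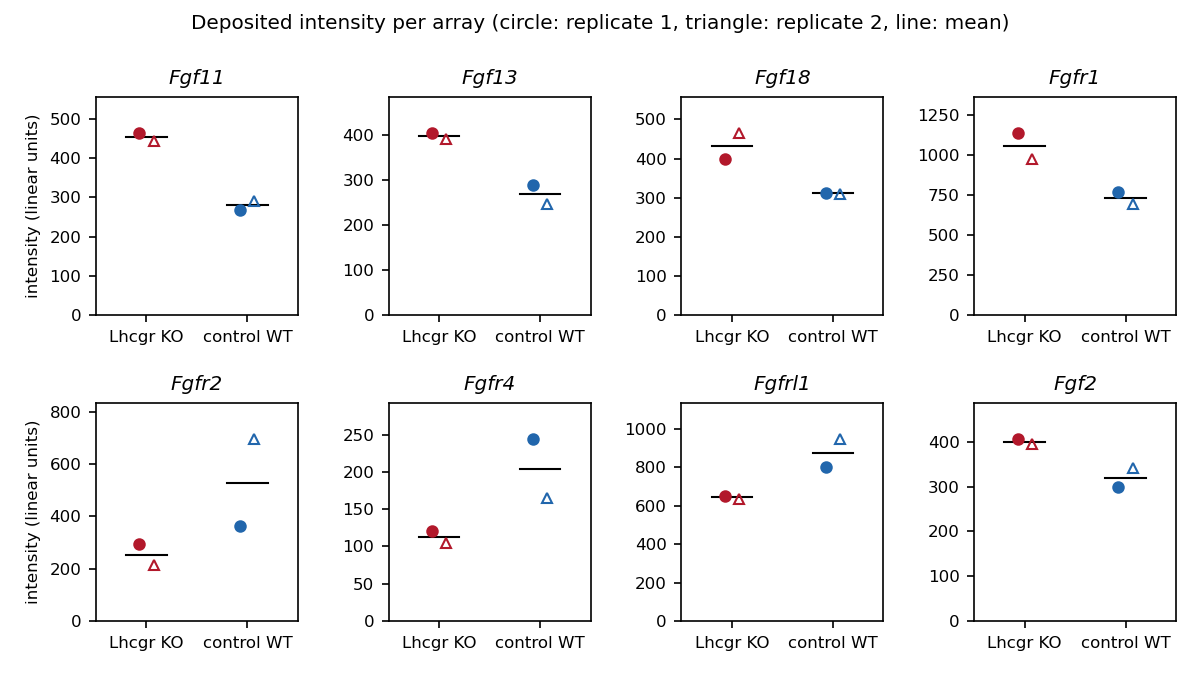
Deposited linear intensity per array for 8 FGF genes, Lhcgr KO at left and control WT at right in each panel, with lines at the mean. Fgf11 has 464 and 443 on the Lhcgr KO arrays, against 269 and 292 on the control WT arrays, while Fgfr2 and Fgfr4 have widely separated control WT arrays.

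The receptors did not share a direction, and none passed the test. Fgfr1, the receptor that many mesenchymal cells use, had higher values in the knockout, 1139 and 977, against 772 and 695 in wild type. Its log2 fold change was 0.53 ± 0.13 (SE, limma adjusted p = 0.0943), with groups that did not overlap, and it lay between 0.42 and 0.64 over the alternatives with adjusted p between 0.0655 and 0.256. Markers of endothelium and peritubular myoid cells had no common direction beside it. Of all genes, 36.8% were higher and 22.4% lower on both knockout arrays. Of 5 endothelial markers, 2 were higher on both knockout arrays, 1 was lower and 2 overlapped (median log2 fold change 0.23, summed intensity 2186.6 and 2225.2 in the knockout, against 1702.3 and 1638.9 in wild type, with Cdh5 the largest part). Of 6 myoid markers, 2 were higher, 3 were lower and 1 overlapped, and none passed the test. Their median log2 fold change was -0.28, although the sum, mostly Acta2, was 7744.3 and 6236.9 in the knockout, against 5930.2 and 5867.9 in wild type. The part of either cell type in the Fgfr1 value was not tested. Fgfr2, whose epithelial form receives Fgf7 and Fgf10, had lower values in the knockout, 294 and 214, against 362 and 696 in wild type. Its log2 fold change was -1.001 ± 0.31 (SE, 95% confidence interval -1.73 to -0.27, limma adjusted p = 0.141), and the wild-type arrays differed from each other by 0.94 log2 units. The high value is on wild-type replicate 2, the array with raised epididymis and rete testis markers. Without that array the log2 fold change of Fgfr2 was -0.53, and without wild-type replicate 1 it was -1.47, so the size depends on 1 array. The part of the epididymal markers in the Fgfr2 value was not tested.

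Fgfr4, the receptor best known from the liver for Fgf15 signals, had 120.5 and 105 in the knockout, against 244 and 164 in wild type. Groups were apart, with a log2 fold change of -0.83 ± 0.20 (SE, 95% confidence interval -1.31 to -0.36, limma adjusted p = 0.0857). Here wild-type replicate 1 was the higher array, as it was for the summed Leydig cell markers. Without wild-type replicate 2 the log2 fold change was -1.12, and without replicate 1 it was -0.55. With the replicate number as a block the adjusted p was 0.0440 by limma. Whether lower Leydig cell marker levels take part in the Fgfr4 value was not tested. Fgfrl1, a receptor without a tyrosine kinase domain that binds FGF ligands, had 652 and 637 in the knockout, against 803 and 947 in wild type. The knockout arrays were nearly equal and below both wild-type arrays, with a log2 fold change of -0.44 (standard error 0.13, adjusted p = 0.129 by limma). Its value without wild-type replicate 2 was -0.32 and without replicate 1 -0.55.

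Fgfr3, the receptor that limits bone growth, read 159 and 173 in the knockout, against 143 and 207 in wild type. The wild-type arrays enclosed both knockout arrays, and the log2 fold change was -0.05 ± 0.19 (SE, limma adjusted p = 0.870), turning to 0.22 without wild-type replicate 2. Across the 5 receptor genes, 1 was higher on both knockout arrays, 3 were lower on both and 1 overlapped, with a median log2 fold change of -0.44. Among all genes 36.8% were higher and 22.4% lower on both knockout arrays. In the second dimmest bin, which holds Fgfr3 and Fgfr4, 46.9% were higher and 14.7% lower. In the third bin, which holds Fgfr2, 26.6% were higher and 33.8% lower. In the brightest bin, which holds Fgfr1 and Fgfrl1, 22.4% were higher and 36.0% lower. The highest value of a receptor gene was on wild-type replicate 2 for 3 of the 5. Fgfbp1, a carrier that releases FGFs from the matrix, read 80.1 and 81.4 in the knockout, against 69.3 and 71.3 in wild type. Replicates of Fgfbp1 were tight, and its log2 fold change was 0.20 ± 0.11 (SE, limma adjusted p = 0.305), near the 0.17 median of the dimmest bin of genes, to which it belongs.

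The feedback and target genes among the listed members did not pass the test and had no common direction. Spry1, a Sprouty inhibitor of receptor tyrosine kinase signals, read 526 and 419 in the knockout, against 395 and 353 in wild type (log2 fold change 0.33 ± 0.15 SE, adjusted p = 0.239 by limma). Spry2, its relative, read 168 and 152 in the knockout, against 183 and 187 in wild type (log2 fold change -0.21 ± 0.12 SE, adjusted p = 0.313 by limma). The groups of both genes were apart, in opposite directions. Spry4 read 268 and 233 in the knockout, against 296 and 269 in wild type, a difference of -0.18 log2 units in which knockout replicate 1 and wild-type replicate 2 nearly met. Spred1, an inhibitor of Ras activation by way of neurofibromin, read 480.4 and 372 in the knockout, against 506 and 431 in wild type, and the groups overlapped (log2 fold change -0.15, limma adjusted p = 0.584). Etv4, an ETS factor switched on by FGF signals, read 98.8 and 112 in the knockout, against 96.4 and 97.6 in wild type. Its log2 fold change of 0.12 (SE 0.12, adjusted p = 0.544 by limma) turned to -0.0034 after quantile normalization.

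**Figure D4:**
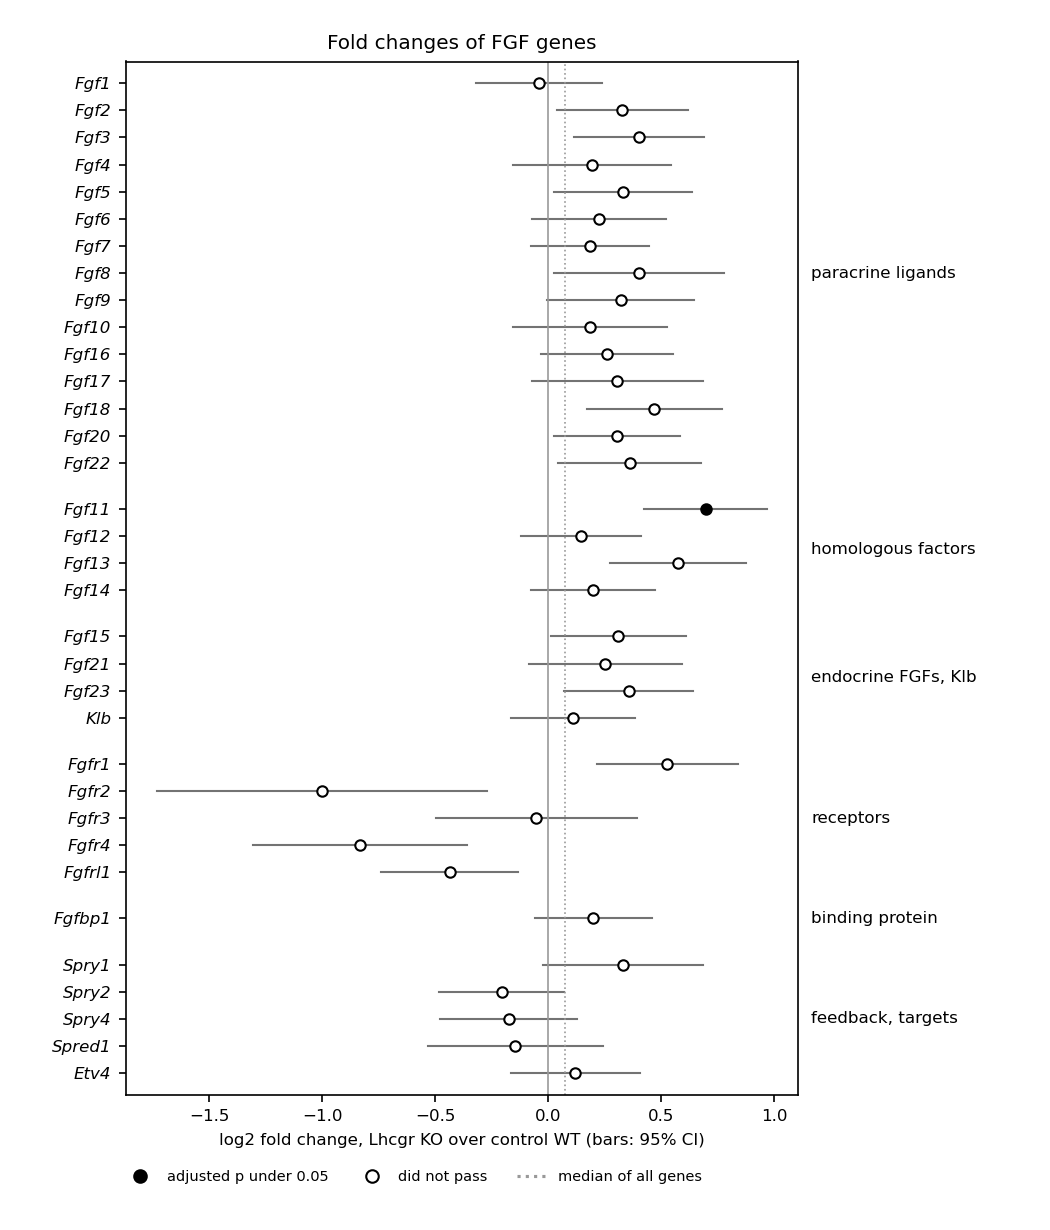
Log2 fold change, Lhcgr KO over control WT, with its 95% confidence interval for each of the 34 FGF genes, grouped by role; filled symbols passed the test, and the dotted line is the median of all genes, 0.07. Fgf11 is the filled symbol at 0.70, and Fgfr2 has the widest interval, -1.73 to -0.27.

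In 11 of the 34 genes the difference between arrays of 1 group was larger than the difference between the groups. These were Fgf1, Fgf4, Fgf8, Fgf10, Fgf17, Fgf21, Klb, Fgfr3, Spry4, Spred1 and Etv4. Single arrays weighed on several members. Without knockout replicate 1 the log2 fold change of Spry1 was 0.17. Without knockout replicate 2 it was 0.20 for Fgf8, 0.21 for Fgf5, 0.23 for Fgf22, 0.13 for Fgf17, 0.09 for Fgf21 and 0.03 for Fgf4. Without wild-type replicate 2 it was 0.19 for Fgf9, 0.20 for Fgf15 and 0.03 for Fgf10. None of these genes passed in any setting run. At a fold of 1.5 or more, Fgf11 was higher and Fgfr2 and Fgfr4 were lower, and the other genes differed by less.

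Beyond the members, 66 other genes of FGF signalling were listed, and 60 were measured. This list was chosen with earlier results of these data known, so its calls cannot be read as an excess over all genes. Of the 60, 3 rose and 3 fell, beside the 3.1% of all genes called, and their median log2 fold change was -0.04. All 6 encode heparan sulfate proteoglycans, enzymes that edit heparan sulfate, or the ETS factor Etv5. None of the 15 measured adaptors and ERK cascade genes passed. The lowest p-values there were those of Frs3, a relative of Frs2 (log2 fold change 0.26 ± 0.11 SE, limma adjusted p = 0.226), and Ptpn11, the SHP2 phosphatase (-0.25 ± 0.11 SE, limma adjusted p = 0.240).

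Among 17 coreceptors and binding partners, 2 rose and 1 fell. Sdc3, a syndecan that carries heparan sulfate at the cell surface, read 846 and 630.4 in the knockout, against 366 and 322 in wild type, a rise of 1.09 ± 0.17 on the log2 scale (SE, limma adjusted p = 0.0244). Gpc3, a glypican anchored in the membrane by lipid, read 909 and 871 in the knockout, against 509.6 and 314 in wild type (log2 fold change 1.15 ± 0.22 SE, adjusted p = 0.0477 by limma). Gpc4, the gene next to Gpc3 on the X chromosome, went the other way, with 807 and 941 in the knockout, against 1729 and 1437 in wild type. Gpc4 fell 1.81-fold (log2 fold change -0.85 ± 0.14 SE, limma adjusted p = 0.0326). The neighbouring glypican genes thus passed the test in opposite directions, with no overlap between groups in either. Kl, the alpha-Klotho coreceptor of Fgf23, chosen after its values were seen, read 204 and 150.5 in the knockout, against 113 and 123 in wild type and did not pass (log2 fold change 0.57 ± 0.17 SE, limma adjusted p = 0.127).

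Among 12 genes of heparan sulfate synthesis and editing, 1 rose and 1 fell. Sulf1, an extracellular enzyme that strips 6-O-sulfate from heparan sulfate and is known to weaken FGF signals, read 429 and 404 in the knockout, against 982 and 1189 in wild type. It fell 2.60-fold, a log2 fold change of -1.38 ± 0.13 (SE, 95% confidence interval -1.70 to -1.06, limma adjusted p = 0.00680). Hs6st2, which adds the 6-O-sulfate that Sulf1 removes, read 434 and 547 in the knockout, against 226 and 117 in wild type. Hs6st2 rose 2.99-fold, a log2 fold change of 1.58 (standard error 0.30, adjusted p = 0.0450 by limma), which moved to 1.11 when wild-type replicate 2 was left out and to 2.05 when replicate 1 was. The related genes Hs6st1 and Sulf2, named after their values were seen, had log2 fold changes of 0.22 (limma adjusted p = 0.382) and -0.17 (limma adjusted p = 0.490), and both had overlapping groups.

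Among 16 other feedback and target genes, Etv5 alone passed. Etv5, an ETS factor of the Etv4 group that Sertoli cells and spermatogonial stem cells express, read 458 and 452 in the knockout, against 1002 and 911 in wild type (log2 fold change -1.07 ± 0.11 SE, adjusted p = 0.00813 by limma). Its other probe set read 355 and 375 in the knockout, against 873 and 784 in wild type, which makes the log2 fold change -1.18. Etv5 and Etv4 thus stood at -1.07 and 0.12. Dusp6, the ERK phosphatase induced by FGF signals and chosen after its values were seen, read 699 and 643 in the knockout, against 820.3 and 838 in wild type (log2 fold change -0.31, limma adjusted p = 0.189). Ccnd1, cyclin D1, read 341 and 444 in the knockout, against 379 on wild-type replicate 1 and 1663 on replicate 2, the array with the epididymal markers, and did not pass (limma adjusted p = 0.329). It too was named after its values were seen. Leaving out either knockout array ended the calls of all 6 pathway genes. A fit without 1 array leaves the other array of its group alone, so its p-value takes no account of that group's spread. Of 14 alternative settings, such fits included, Etv5, Sdc3 and Sulf1 passed in 12 each, Gpc4 in 10, Hs6st2 in 9 and Gpc3 in 8.

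**Figure D5:**
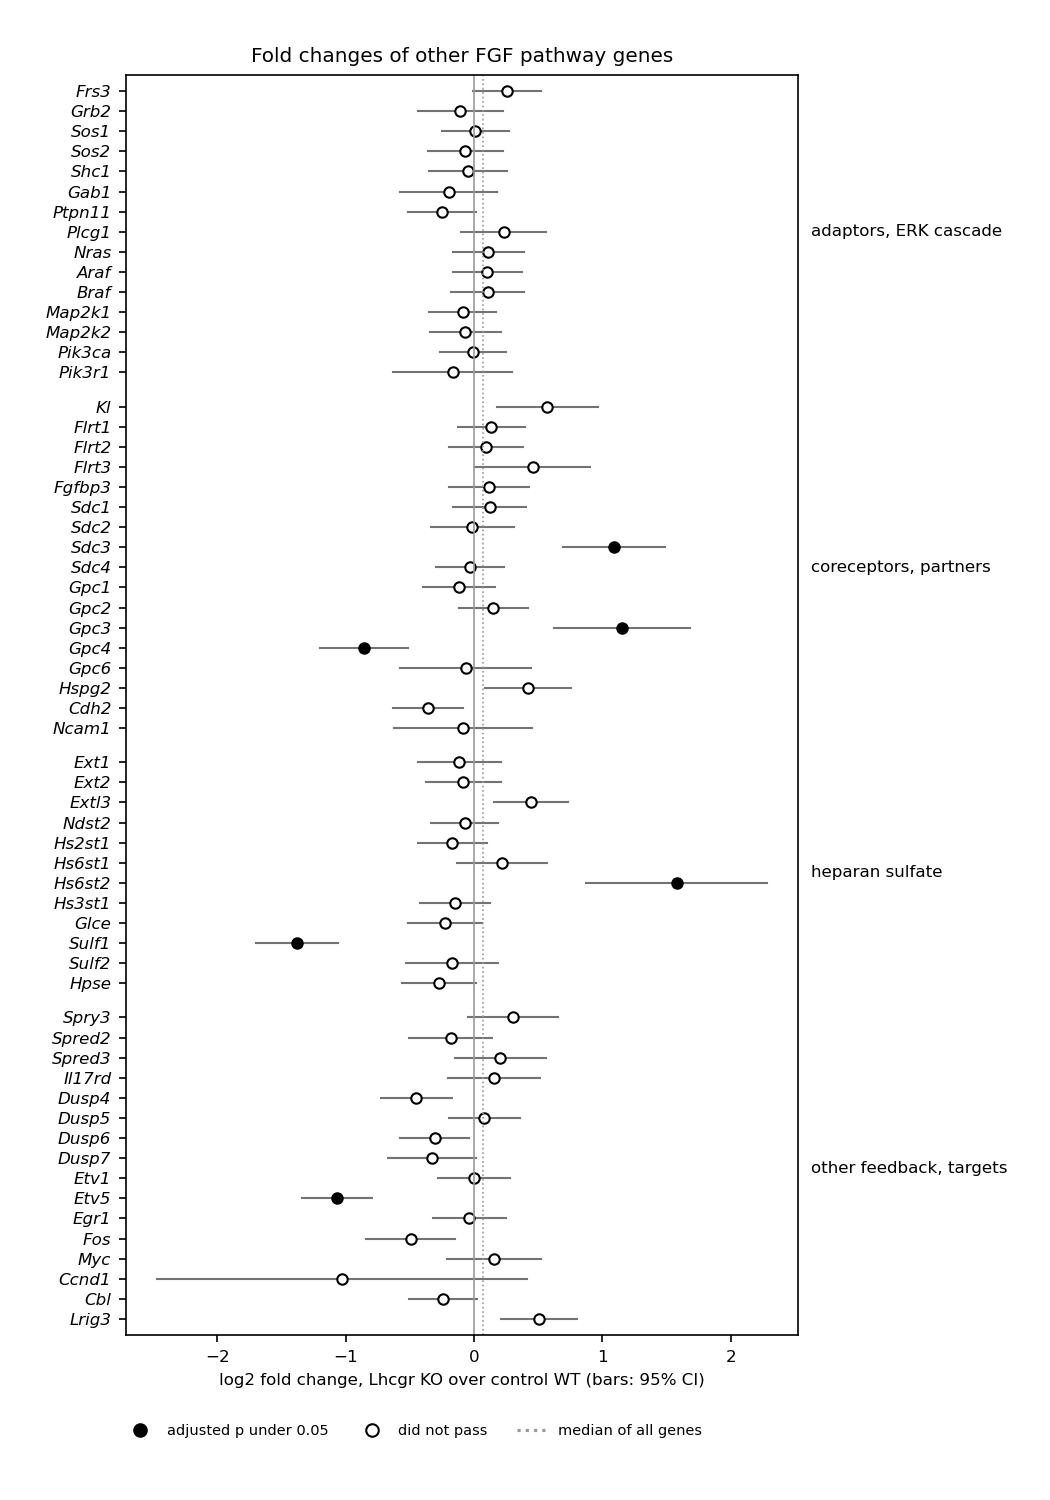
Log2 fold change, Lhcgr KO over control WT, with its 95% confidence interval for 60 other genes of FGF signalling in 4 groups; filled symbols passed the test. Sdc3, Gpc3 and Hs6st2 lie to the right, Gpc4, Sulf1 and Etv5 to the left, and the adaptors and ERK cascade genes cluster about 0.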

How the data were processed

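Testis RNA was made into biotin-labelled sense cDNA and read on Affymetrix whole-transcript arrays, per the labels' protocols. The deposited values are linear intensities, 1 for each of 28856 probe sets and array. The submitters' processing notes name the build mm9. How the authors summarized, background-corrected and normalized the intensities is not given in the sources used here. Of the probe sets, 21789 have 1 gene symbol, 1621 several and 5446 none, and the last 2 kinds were not used. Of the 21789, 21698 matched a RefSeq gene of GRCm38.p6 by Entrez number, with 0 symbols changed; that build differs from mm9 and gave names, gene order and promoter sequences only. Where a gene had several probe sets (999 of 19938 genes), the one with the highest mean stood for it.

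Intensities were log2-transformed and fitted with limma 3.58.1 in R 4.3.3 (lmFit, eBayes, constant prior with 4.65 degrees of freedom, no covariates). The two-sided p-values were Benjamini-Hochberg adjusted across 19938 genes, with a threshold of 0.05. The number of arrays, 2 a group, limits the precision. All listed members were named whatever their values, and wider pathway genes where they passed, or the 2 with the lowest p in a group without calls. Outside this rule, Kl, Hs6st1, Sulf2, Dusp6 and Ccnd1 were named for their roles after their values were seen. Kl had the lowest p-value among the genes of its group that did not pass. For the others, unnamed genes of their groups had lower p-values. The members, lists and motifs were chosen with earlier results of these data known. On simulated arrays for this comparison with 19938 genes, the fit recovered 78% of genes changed by 1 and 98% of genes changed by 2 log2 units, with 11 unchanged genes called.

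Alternatives were quantile normalization, median centring, dropping the dimmest 25% or 50% of genes, averaging or separately testing probe sets, a trended or robust prior, a replicate block, leaving out each array, and a threshold of 0.1. Adding 32 to each intensity was chosen after seeing the data.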

Additional observations from a re-analysis of the deposited data

How the results depend on the processing

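Signal near the floor and 2 arrays a group limit these results; no detection calls were used. The count of FGF members called, 1 higher and 0 lower with all arrays, became 2 higher when the dimmest 50% of genes were dropped and with a robust prior (Fgf11 and Fgf13), and 3 higher and 1 lower at a threshold of 0.1. With the replicate block it was 0 higher and 1 lower: Fgf11 missed the threshold (adjusted p = 0.0502) and Fgfr4 passed it (0.0440). Same-numbered replicates share only a number, and the within-group differences of the pairs correlated at 0.0205 across genes. The block moved the counts of all genes to 173 higher and 399 lower and of pathway genes to 2 and 2. Pathway genes called higher, 3 with all arrays, were 1 after quantile normalization and 1 with a robust prior. At a threshold of 0.1, 482 genes were called higher and 762 lower, against 192 and 426.

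Leaving out 1 array at a time, with a lone sample assumed to vary like the other group, gave 2 to 313 genes higher and 16 to 726 lower, 0 to 1 member higher and 0 to 1 lower, and 0 to 3 pathway genes higher and 0 to 4 lower. The lowest counts came without a knockout array: 2 higher and 16 lower without replicate 1, and 2 higher and 21 lower without replicate 2. The members' median log2 fold change stayed between 0.18 and 0.32 in every setting run.

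Sign changes were seen for 5 members, none of which passed in any setting. Klb was -0.0297 and Etv4 -0.0034 after quantile normalization. Leaving out 1 array at a time, Fgfr3 ranged from -0.322 to 0.215 (0.0078 without knockout replicate 1, the highest without wild-type replicate 2), Spred1 from -0.331 to 0.0398 (the highest without knockout replicate 2) and Fgf1 from -0.121 to 0.0364 (the highest without wild-type replicate 1). The causes were not tested.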
